A study of Mus musculus with 6 samples.

Results

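The 10 polyamine genes described here encode enzymes that make and break down polyamines and the antizyme proteins that set the supply of the first of these enzymes. They were taken by gene symbol (Odc1, Amd1, Srm, Sms, Sat1, Smox, Paox, Azin1, Oaz1 and Oaz2) from a table of 47643 genes, and all 10 were found and passed the filter on low counts. Messenger RNA of intestine from male C57BL/6 mice was sequenced in 6 libraries, 3 in each group. The Myc-deleted group had the genotype MycΔIE, ERT2, and the control group the genotype Mycfl/fl, the floxed gene. ERT2 is the tamoxifen-binding part of a hormone receptor used to make a recombinase inducible, and the labels do not spell out IE. Mice of both groups were 7 to 8 weeks old, received tamoxifen by intraperitoneal injection and ate a 60% high-fat diet (HFD) for 2 weeks. The comparison asks how mRNA levels in the intestine of mice on this diet differ when Myc is deleted. Not stated in the labels are the promoter that drives the recombinase, its presence in control mice, the segment of intestine and whether each library is 1 mouse. An effect of the recombinase itself and an effect of losing Myc cannot be told apart in any difference below.

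Polyamines are small positively charged molecules that bind RNA and other acidic molecules and that dividing cells, such as those of the intestinal crypts, need in quantity. Ornithine decarboxylase (Odc1) makes putrescine from ornithine, S-adenosylmethionine decarboxylase (Amd1) prepares the aminopropyl donor, and the synthases encoded by Srm and Sms build spermidine and spermine from them. Sat1 encodes the acetyltransferase that marks polyamines for export or oxidation, Paox the oxidase of the acetylated forms, and Smox the oxidase of spermine itself. The antizymes (Oaz1, Oaz2) bind ornithine decarboxylase and deliver it to the proteasome, and the antizyme inhibitor (Azin1), a relative of the decarboxylase without its activity, holds antizyme away from it. Odc1 is a textbook target of Myc.

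In Myc-deleted intestine, Odc1 mRNA rose 1.63-fold (95% interval 1.40 to 1.90), and it was the only one of the 10 genes to pass the test across all genes. The counts of the other 9 gave log2 fold changes between -0.39 (Sms) and 0.37 (Smox), none of which passed. With edgeR's quasi-likelihood test 0 of the 10 were lower. DESeq2 and limma voom also called 0 lower, beside 3.71% and 3.79% of all tested genes. At an unadjusted edgeR p under 0.05, 1 of the 10, Sms, was lower. In either direction 3 of the 10 reached that threshold, beside 22.2% of all tested genes. DESeq2 and limma voom likewise called 1 of the 10 higher, beside 4.56% and 4.1% of all tested genes. The share called was 7.95% over all 12720 tested genes (4.22% higher and 3.73% lower), so 1 of 10 is near the background. The median log2 fold change of the 10 genes was 0.05, beside -0.00212 over all tested genes. In bulk tissue, more cells of a type and more mRNA per cell cannot be told apart.

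Antizyme mRNAs are controlled at a step that read counts do not show, and the sequence of that step is given here because the antizyme counts below have to be read with it. The first reading frame of each ends at a TGA stop, and ribosomes must slip by 1 base there, which polyamines promote, to make the full protein. The capitals mark the TCC codon and the TGA stop, in 70 bases of coding sequence from the GENCODE M21 transcripts (GRCm38, + strand, chr10:80828262-80828331 for Oaz1 and chr9:65686239-65686308 for Oaz2). The 2 stretches were identical at 57 of 70 bases (81.4%).
Oaz1: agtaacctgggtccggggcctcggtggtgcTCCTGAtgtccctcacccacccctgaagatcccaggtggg
Oaz2: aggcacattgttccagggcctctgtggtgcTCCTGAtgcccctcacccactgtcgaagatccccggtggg

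Promoter windows from 250 bases before to 50 bases after the start were found in RefSeq (GRCm38.p6) for 8 of the 10 genes, 10 windows in all. They were searched on both strands for the E-box CACGTG, the motif that Myc binds with Max, and for the GC box GGGCGG. The E-box was in 1 of the 10 windows, the more upstream of the windows of Sms, beside 7.15% of all 32851 windows. The GC box was in 8 of the 10 windows (7 of the 8 genes), beside 35.7% of all windows. Paox and Sms each had 2 windows, and the 2 of Paox overlap and hold the same boxes. A match is a description of letters and not a binding site, and introns were not searched. The Odc1 stretch below (chr12:17544623-17544793, + strand) ends before the first base of the GENCODE gene and holds 3 GC boxes in capitals, which do not overlap. The Sms stretch (chrX:157492448-157492507, - strand) holds the E-box in capitals. They are shown because Odc1 is the gene that changed and Sms the gene whose window holds the E-box.
Odc1: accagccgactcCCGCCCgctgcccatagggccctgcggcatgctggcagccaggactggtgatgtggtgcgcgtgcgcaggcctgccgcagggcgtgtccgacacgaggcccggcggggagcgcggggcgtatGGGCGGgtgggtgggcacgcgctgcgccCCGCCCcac
Sms: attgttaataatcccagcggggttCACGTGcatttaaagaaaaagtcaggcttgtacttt

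Libraries held 9956938 to 11328693 expected counts, and 3 counts, the smallest number taken as a floor, corresponded to 0.259 to 0.306 CPM, the usual unit of counts scaled to a common library total. Gene levels below are CPM after TMM scaling between libraries. The extraction protocol names liver where the other labels name intestine. The summed level of 12 enterocyte markers was 50037 to 55037 CPM in Myc-deleted libraries and 39729 to 46930 CPM in controls. Hepatocyte markers (10 genes, none at 0 in all libraries) summed to 8.17 to 20.2 CPM in Myc-deleted libraries and 29.7 to 47.4 CPM in controls, and 2 of the 4 tested were lower. In every library the enterocyte sum was far above the hepatocyte sum, which matches the labels that name intestine. Of 8 pancreatic acinar markers, Prss2, Cela2a, Cpa1 and Pnlip had no count in any library. The 8 summed to 14.6 to 17.6 CPM in Myc-deleted libraries and 7.46 to 11.2 CPM in controls, with 1 called higher. Myc itself stood at 3.29, 4.36 and 5.81 CPM in Myc-deleted libraries 1 to 3, against 5.86, 6.05 and 6.03 CPM in control libraries 1 to 3. The difference did not pass (log2 fold change -0.41 ± 0.22 SE, edgeR adjusted p = 0.318; 0.141 to 0.580 over the alternatives), and Myc-deleted library 3 was close to the controls, so its label could not be checked in this way.

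Odc1 (ENSMUSG00000011179.7, chromosome 12, 17544794 to 17551505, GRCm38), the gene of the enzyme that starts the pathway, had 171, 160.1 and 175 CPM in Myc-deleted libraries 1 to 3, against 119.9, 95.7 and 95.1 CPM in control libraries 1 to 3. All Myc-deleted libraries lay above all controls, and control library 1 stood above the other controls. The log2 fold change was 0.70 ± 0.10 SE (95% interval 0.48 to 0.93, edgeR adjusted p = 0.00291). Leaving out any library kept the call, with log2 fold changes of 0.64 to 0.82 and adjusted p of 0.00290 to 0.0224 by edgeR.

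Lists of cell type markers were counted in the same way, beside the 4.22% higher and 3.73% lower of all tested genes. Of 10 crypt stem cell markers 9 were tested, of which 5 rose and 0 fell, and 3 of the 9 had a negative log2 fold change. The 10 summed to 214 to 255 CPM in Myc-deleted libraries and 143 to 200.2 CPM in controls. Of the 12 enterocyte markers 3 rose, and of 10 markers of secretory epithelium 2 rose. Although those 2 rose, the secretory markers summed to 12515 to 13094 CPM in Myc-deleted libraries and 13126 to 13251 CPM in controls. Of 12 proliferation markers none passed, and their sum was 176 to 223 CPM in Myc-deleted libraries and 207 to 232 CPM in controls. Of 10 immune markers 1 fell, with sums of 318 to 375 CPM in Myc-deleted libraries and 331 to 357 CPM in controls. None of 8 smooth muscle markers passed, but 7 of the 8 had a negative log2 fold change, with a median of -1.03. They summed to 175 to 197 CPM in Myc-deleted libraries and 178 to 258 CPM in controls. Among 8 fibroblast and endothelial markers 0 passed as well (63.9 to 89.3 CPM in Myc-deleted libraries, 63.8 to 77.2 CPM in controls). No marker of these lists was at 0 in all libraries. The part of these cells in the Odc1 result was not tested.

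**Figure D1:**
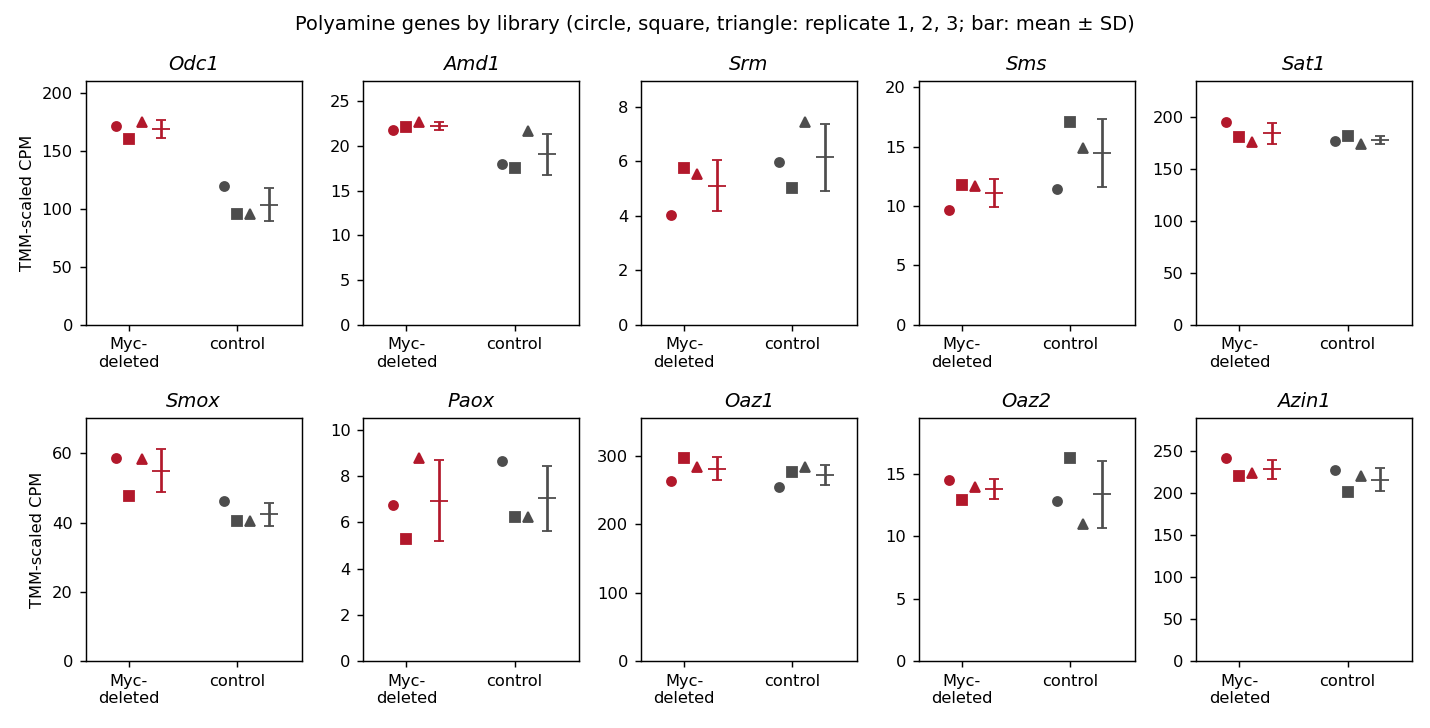
Level of each of the 10 polyamine genes (TMM-scaled CPM, linear axis from 0) in 3 Myc-deleted (red) and 3 control (grey) libraries, with mean ± SD beside the points. Odc1, Amd1 and Smox are the genes whose groups do not overlap, with Odc1 at 160.1 to 175 CPM in Myc-deleted libraries and 95.1 to 119.9 CPM in controls.

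Odc1 has copies in the genome that reads can match equally well, and 24.3% of the 50-base stretches in its transcripts also occur in transcripts of other genes. The 10 genes of the table that each held at least 1% of these stretches summed to 82.7 to 106 counts in Myc-deleted libraries and 6.30 to 28.7 counts in controls. In every library but control library 2 (1.03 of 6.30 counts), most of these were assigned to Gm7993. This processed pseudogene (chromosome 5, 95974240 to 95975623) shares 11.7% of the stretches. Gm7993 was singled out once its counts were known. Gm7993 had 85.9, 75.1 and 72.9 counts in Myc-deleted libraries 1 to 3, against 14.8, 1.03 and 19.0 counts in control libraries 1 to 3. Gm7993 rose (log2 fold change 2.66 ± 0.50 SE, edgeR adjusted p = 0.0105), with 2.05 without control library 2, which had 1.03 counts, and 3.24 without control library 3. Whether the reads come from the pseudogene or from Odc1 cannot be told from these counts. With the counts of these genes added to its own, Odc1 had a log2 fold change of 0.75 (edgeR adjusted p = 0.00213).

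Amd1 (chromosome 10, 40287458 to 40302186) had 21.8, 22.1 and 22.7 CPM in Myc-deleted libraries 1 to 3, against 18.0, 17.5 and 21.7 CPM in control libraries 1 to 3. The groups did not overlap, though Myc-deleted library 1 and control library 3 were nearly equal, and the difference did not pass (0.22 ± 0.11, edgeR adjusted p = 0.269). Its near copy Amd2 lies on the same chromosome (35708675 to 35711892) and holds 76.7% of the 50-base stretches of Amd1, so the assignment of reads between them is uncertain. Amd2 had 45.5, 31.7 and 33.0 counts in Myc-deleted libraries 1 to 3, against 6.57, 1.82 and 17.6 counts in control libraries 1 to 3. Its log2 fold change of 1.94 ± 0.54 did not pass (edgeR adjusted p = 0.0566), but did so with DESeq2 (adjusted p = 0.00673), with limma voom (0.0345), with no low-count filter (0.00766) and without control library 3 (2.97, edgeR adjusted p = 0.0156). The range over all alternatives for Amd2 was 0.00673 to 0.158. With the genes that share its sequence added, Amd1 had a log2 fold change of 0.38 and did not pass either (edgeR adjusted p = 0.0839).

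The synthase genes had negative fold changes that did not pass. Srm (chromosome 4, 148591503 to 148594993) stood at 4.03, 5.76 and 5.54 CPM in Myc-deleted libraries 1 to 3, against 5.96, 5.01 and 7.46 CPM in control libraries 1 to 3. These groups overlapped, and with 44 to 73 counts per library counting error alone came to 13.0% of the level. The log2 fold change of Srm was -0.26 ± 0.22 (95% interval -0.75 to 0.23, edgeR adjusted p = 0.538). Without control library 3 it was -0.10, and without control library 2 it was -0.40.

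Sms (chromosome X, 157443855 to 157492287) stood at 9.70, 11.8 and 11.7 CPM in Myc-deleted libraries 1 to 3, against 11.4, 17.1 and 14.9 CPM in control libraries 1 to 3. Control library 1 lay within the Myc-deleted range, and control library 2 was the highest. The log2 fold change was -0.39 ± 0.16 (95% interval -0.76 to -0.03), with an unadjusted p of 0.0381 and an edgeR adjusted p of 0.193. Its pseudogene Sms-ps, which shares 17.4% of its 50-base stretches, had 0 to 3.28 counts in Myc-deleted libraries and 6.39 to 10.6 counts in controls. With the genes that share its sequence added, Sms had a log2 fold change of -0.46 and did not pass either (edgeR adjusted p = 0.114).

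**Figure D2:**
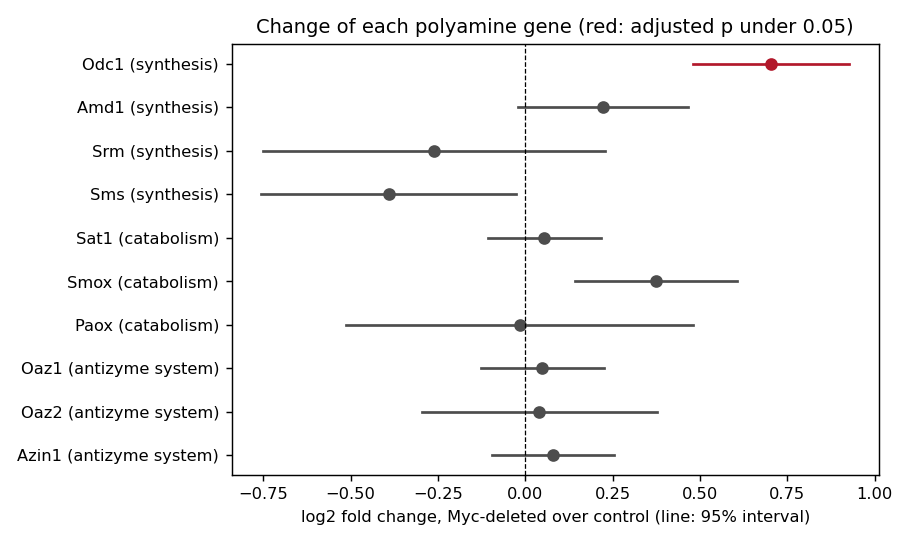
Log2 fold change of each polyamine gene, Myc-deleted over control, with its 95% interval from the quasi-likelihood fit (red, adjusted p under 0.05). Only the interval of Odc1 belongs to a gene that passed, and those of Smox and Sms also lie on one side of 0.

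Among the genes of polyamine breakdown, Smox (chromosome 2, 131491496 to 131525922) came nearest to the threshold. It had 58.6, 47.8 and 58.5 CPM in Myc-deleted libraries 1 to 3, against 46.3, 40.4 and 40.6 CPM in control libraries 1 to 3. The groups did not overlap, with Myc-deleted library 2 close to control library 1. The log2 fold change was 0.37 ± 0.10 (edgeR adjusted p = 0.0571). Smox passed with no low-count filter (adjusted p = 0.0381) and without Myc-deleted library 2 (0.46, adjusted p = 0.0338), and the edgeR, DESeq2 and limma voom adjusted p ranged from 0.0338 to 0.208 over the alternatives. None of its 50-base stretches occurred in another gene.

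Sat1 (chromosome X, 155213132 to 155216449), which lies on the same chromosome and strand as Sms, had 196, 181 and 176 CPM in Myc-deleted libraries 1 to 3, against 177, 182 and 174 CPM in control libraries 1 to 3. Myc-deleted library 1 was the highest, and the groups overlapped. The log2 fold change was 0.05 ± 0.07 with a 95% interval of -0.11 to 0.22 (edgeR adjusted p = 0.716). Paox (chromosome 7, 140115799 to 140137224) had 6.77, 5.29 and 8.76 CPM in Myc-deleted libraries 1 to 3, against 8.65, 6.22 and 6.23 CPM in control libraries 1 to 3. Its libraries varied more among themselves than between groups (-0.02 ± 0.22, edgeR adjusted p = 0.976), and the sign turned without Myc-deleted library 1 (0.00194), Myc-deleted library 2 (0.14) or control library 1 (0.16). Its interval of -0.51 to 0.48 leaves room for changes of either sign. Part of Paox lies opposite Echs1 (142 bases of exon on the other strand), and part of Azin1 opposite the antisense gene Gm49077 (358 bases). The libraries were stranded per the labels, but the sources used here do not say how strand was used in counting. Of the 50-base stretches of Paox 25.9% occur in other genes, most of them in Gm19680. That gene had 3.63 counts in control library 3 and none in the other libraries.

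The antizyme mRNAs and that of their inhibitor did not pass, and their intervals were narrow for the abundant ones. Oaz1 (chromosome 10, 80826656 to 80829290) had 263, 296 and 283 CPM in Myc-deleted libraries 1 to 3, against 255, 276 and 283 CPM in control libraries 1 to 3. The groups overlapped, with a log2 fold change of 0.05 ± 0.08 (95% interval -0.13 to 0.22, edgeR adjusted p = 0.776). Of the 50-base stretches of Oaz1 21% occur in other genes, mostly in Oaz1-ps, which had 7.72 to 24.65 counts per library. Azin1 (chromosome 15, 38487427 to 38519266) had 241, 221 and 223 CPM in Myc-deleted libraries 1 to 3, against 227, 201 and 220.4 CPM in control libraries 1 to 3. Its groups overlapped too (0.08 ± 0.08, 95% interval -0.09 to 0.25, edgeR adjusted p = 0.605).

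Oaz2 (chromosome 9, 65668001 to 65690300) had 14.5, 12.9 and 13.9 CPM in Myc-deleted libraries 1 to 3, against 12.8, 16.3 and 11.03 CPM in control libraries 1 to 3. The control libraries spread on both sides of the Myc-deleted ones. The log2 fold change was 0.04 ± 0.15 (95% interval -0.30 to 0.38, edgeR adjusted p = 0.908), and its sign turned with upper-quartile scaling (-0.00185) and without control library 3 (-0.08). These values are mRNA levels, and the slip at the TGA stop shown above, which decides how much antizyme is made, was not measured.

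Ratios of 2 genes within a library do not depend on the scaling between libraries. For every Oaz1 count there were 0.651, 0.541 and 0.619 Odc1 counts in Myc-deleted libraries 1 to 3, against 0.4703, 0.347 and 0.336 in control libraries 1 to 3. All Myc-deleted ratios were above all control ratios, with a difference of 0.66 in the mean log2 ratio. A two-sided exact permutation test gave p = 0.1, the smallest that 3 against 3 allows, and 0.4 adjusted over the 4 ratios tested. The ratio of Azin1 to Oaz1 averaged 0.818 ± 0.0903 in Myc-deleted libraries and 0.7995 ± 0.0839 in controls (SD, n = 3 each), with a log2 difference of 0.03 (exact permutation p = 0.7, adjusted p = 1). The ratios of Oaz2 to Oaz1 (log2 difference 0.01) and of Srm to Sms (0.11) each had an exact permutation p = 1. The signs of these other differences turned when single libraries were left out. The Azin1 ratio turned without Myc-deleted library 1 (-0.05) or control library 2 (-0.03), the Oaz2 ratio without Myc-deleted library 1 (-0.07) or control library 3 (-0.15), and the Srm ratio without control library 2 (-0.16).

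**Figure D3:**
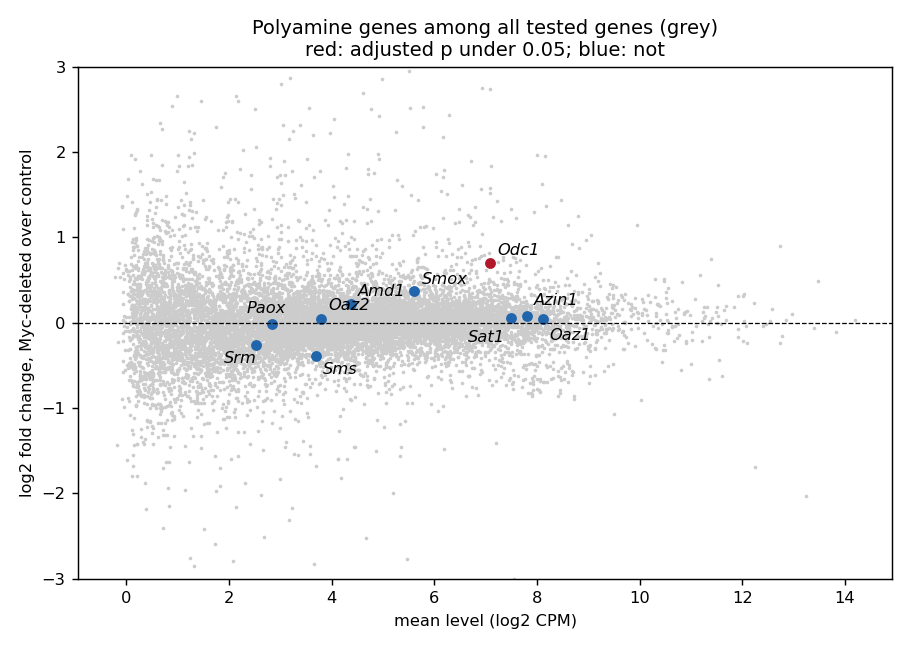
Log2 fold change, Myc-deleted over control, against mean level (log2 CPM) for all 12720 tested genes (grey) and the 10 polyamine genes (red, adjusted p under 0.05; blue, not). Odc1 stands at a log2 fold change of 0.70, while Oaz1, Azin1 and Sat1, at similar or higher levels, lie near 0. The 19 genes beyond a log2 fold change of 3 are not drawn.

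Per kilobase of exon, levels spanned from antizyme 1 at the top to Paox at the bottom. Oaz1 averaged 109.7 ± 6.58 CPM per kb in Myc-deleted libraries and 106 ± 5.76 in controls, and Sat1 followed with 66.5 ± 3.63 in Myc-deleted libraries and 64.0 ± 1.41 in controls (SD, n = 3 each). Odc1 stood at 49.5 ± 2.27 CPM per kb in Myc-deleted libraries and 30.4 ± 4.15 in controls, where Azin1 stood at 36.5 ± 1.80 in Myc-deleted libraries and 34.6 ± 2.20 in controls. Odc1 was above Azin1 in 3 of 3 Myc-deleted libraries and in 0 of 3 controls, although the ranges of these neighbours overlapped in the controls. Smox came next, and then Amd1, Oaz2, Srm, Sms and Paox, with their means in the same order in both groups. The neighbours whose libraries overlapped were Sms and Paox in the Myc-deleted group, and Azin1 with Odc1, Amd1 with Oaz2 and Oaz2 with Srm in the control group. Exon length is the union over GENCODE transcripts and not the length of the isoforms expressed.

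**Figure D4:**
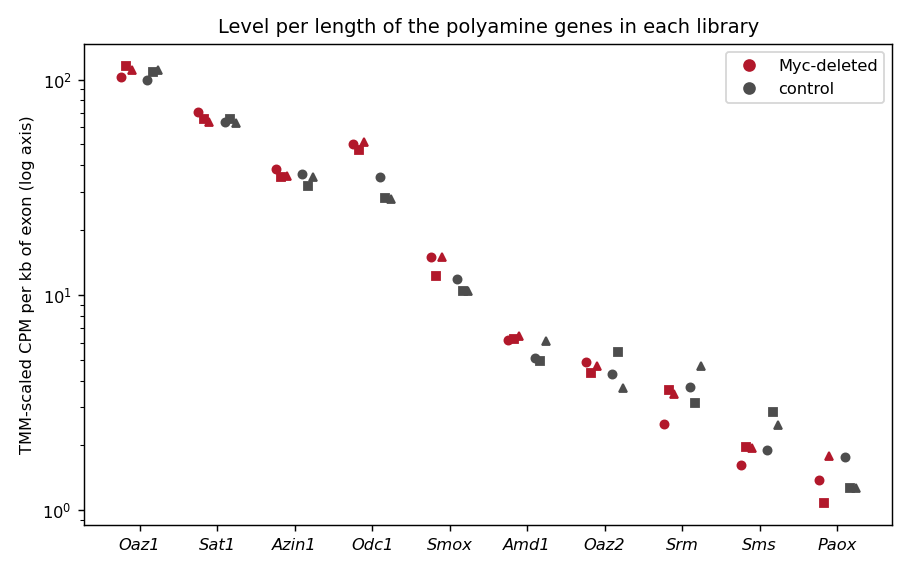
TMM-scaled CPM per kilobase of exon (log axis) of the 10 polyamine genes in each Myc-deleted (red) and control (grey) library, ordered by the control mean, with circle, square and triangle for replicates 1, 2 and 3. Odc1 lies above Azin1 in all Myc-deleted libraries and below it in all controls.

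In 3 of the 10 genes (Odc1, Amd1 and Smox) the groups did not overlap, all with higher levels in Myc-deleted libraries, beside 27.8% of all tested genes without overlap (14% higher). An unadjusted p under 0.05 was reached by 3 of the 10, Odc1, Smox and Sms, and by 22.2% of all tested genes. Among Myc-deleted libraries the variation was 2.10% (Amd1) to 25.1% (Paox) of the mean. Among controls it was 2.21% (Sat1) to 20.0% (Srm). Counting error alone was larger than the spread for Amd1 (6.75%) and Oaz2 (8.29% against 6.00%) in Myc-deleted libraries. It was also larger for Sat1 in controls (2.28%). Per the GENCODE annotation, Odc1, Oaz1 and Azin1 also hold a small RNA gene within their span, the snoRNA Gm22748, Mir1982 and Mir6951.

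The genes around the pathway, 39 in 6 lists chosen by function, included 31 that were tested. Of these 3 fell and 1 rose (4 of 31, 12.9%, beside 7.95% of all tested genes), with a median log2 fold change of -0.05. All that fell, Arg2, Oat and Nags, belong to the list named ornithine supply. There 3 of 9 tested genes fell and 0 rose, beside 3.73% lower and 4.22% higher of all tested genes. The lists were chosen with earlier results of these data known, so such a count is not a test of the list. The name is loose, as Otc in that list uses ornithine and Nags does not make it. The gene that rose was Dhps, of the hypusination list. At an unadjusted p under 0.05, 6 were higher and 7 lower (41.9% of 31, beside 22.2% of all tested genes). DESeq2 called 2 higher and 4 lower (19.4%, beside 8.27% of all tested genes), and limma voom 2 higher and 3 lower (16.1%, beside 7.89%).

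Arg2, the mitochondrial arginase that splits arginine into ornithine and urea, had 40.7, 55.1 and 37.3 CPM in Myc-deleted libraries 1 to 3, against 87.4, 101 and 82.9 CPM in control libraries 1 to 3. Every Myc-deleted library was below every control, and the log2 fold change was -1.03 ± 0.14 (edgeR adjusted p = 0.00247). Oat, the aminotransferase that links ornithine with glutamate and proline, had 331, 341 and 307 CPM in Myc-deleted libraries, against 453, 452 and 471 CPM in controls. Its groups did not overlap either (-0.49 ± 0.07, edgeR adjusted p = 0.00383). Arg2 and Oat kept their calls in every alternative, with log2 fold changes of -1.22 to -0.92 and -0.53 to -0.45.

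Nags, whose product makes the activator of carbamoyl phosphate synthetase, averaged 48.1 ± 1.27 CPM in Myc-deleted libraries and 62.2 ± 7.25 CPM in controls (SD, n = 3 each). It fell (-0.37 ± 0.10, edgeR adjusted p = 0.0450), but did not pass without any of 5 single libraries. The edgeR adjusted p of Nags was 0.0709, 0.115 and 0.103 without Myc-deleted library 1, 2 or 3 and 0.163 and 0.132 without control library 2 or 3. Cps1, that synthetase, averaged 215 ± 26.0 CPM in Myc-deleted libraries and 173 ± 20.9 CPM in controls and did not pass (0.31 ± 0.11, edgeR adjusted p = 0.128). Aldh18a1, which makes the glutamate semialdehyde from which ornithine is built, averaged 78.7 ± 3.23 CPM in Myc-deleted libraries and 65.7 ± 6.37 CPM in controls (0.26 ± 0.09, edgeR adjusted p = 0.115). Otc, which turns ornithine into citrulline, averaged 65.6 ± 9.23 CPM in Myc-deleted libraries and 79.6 ± 2.46 CPM in controls (-0.28 ± 0.10, edgeR adjusted p = 0.145).

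**Figure D5:**
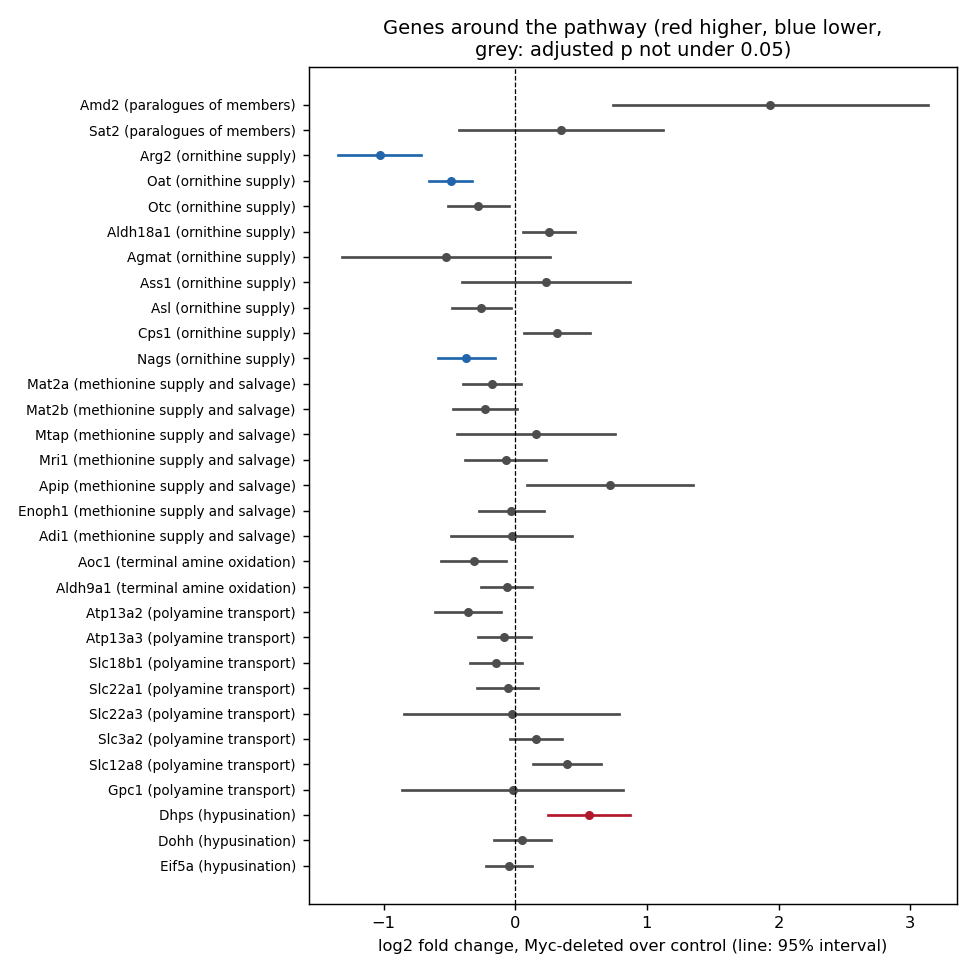
Log2 fold change, Myc-deleted over control, with 95% intervals for the 31 tested genes that supply, salvage, oxidise, move or use polyamines or resemble the 10 polyamine genes. Arg2, Oat and Nags (blue) were lower and Dhps (red) higher, and the widest interval is that of Amd2.

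Spermidine is used to make hypusine, a modified amino acid of the translation factor eIF5A, by the enzymes encoded by Dhps and then Dohh. Dhps had 19.8, 20.7 and 20.6 CPM in Myc-deleted libraries 1 to 3, against 15.8, 14.7 and 10.8 CPM in control libraries 1 to 3. The groups did not overlap, with control library 3 the lowest (0.56 ± 0.14, edgeR adjusted p = 0.0369). Dhps did not pass with upper-quartile scaling (edgeR adjusted p = 0.0526), without Myc-deleted library 1, 2 or 3 (0.0615, 0.106 and 0.0808) or without control library 2 or 3 (0.0958 and 0.0740). Dohh averaged 21.8 ± 0.872 CPM in Myc-deleted libraries and 20.9 ± 1.47 CPM in controls (0.06 ± 0.10, edgeR adjusted p = 0.795). Eif5a averaged 283 ± 22.4 CPM in Myc-deleted libraries and 293 ± 2.39 CPM in controls (-0.05 ± 0.08, edgeR adjusted p = 0.769), with the sign turned without Myc-deleted library 1 (0.01).

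Among the tested genes of the other lists none passed (0 of 2 paralogues, 0 of 7 for methionine supply and salvage, 0 of 2 for terminal amine oxidation and 0 of 8 for transport, by edgeR). Beside the 7.95% called of all tested genes, lists this short say little. Aoc1, the intestinal diamine oxidase that degrades putrescine and histamine, had 1416, 1294 and 1066 CPM in Myc-deleted libraries 1 to 3, against 1620, 1510 and 1570 CPM in control libraries 1 to 3. The groups of Aoc1 did not overlap (-0.32 ± 0.11), and it passed with DESeq2 (adjusted p = 0.0464) but not with edgeR (adjusted p = 0.122; 0.0464 to 0.266 over the alternatives). Aldh9a1, which oxidises the aminoaldehydes that follow, averaged 466 ± 32.4 CPM in Myc-deleted libraries and 488 ± 37.4 CPM in controls (-0.07 ± 0.09, edgeR adjusted p = 0.719).

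Mat2a and Mat2b, the subunits of the enzyme that makes S-adenosylmethionine in most tissues, had log2 fold changes of -0.18 ± 0.10 and -0.23 ± 0.11 (edgeR adjusted p = 0.337 and 0.262). Enoph1 of the methionine salvage pathway had -0.03 ± 0.11 (edgeR adjusted p = 0.904), and its sign turned without Myc-deleted library 3 (0.05) or control library 1 (0.00167). Of the transport genes, Slc3a2, the heavy chain of amino acid exchangers, averaged 281 ± 10.96 CPM in Myc-deleted libraries and 252 ± 27.1 CPM in controls (0.16 ± 0.09, edgeR adjusted p = 0.341). Atp13a3, a P-type ATPase of polyamine uptake, averaged 58.6 ± 3.50 CPM in Myc-deleted libraries and 62.0 ± 5.14 CPM in controls (-0.08 ± 0.09, edgeR adjusted p = 0.647). Slc12a8 averaged 53.0 ± 8.73 CPM in Myc-deleted libraries and 40.4 ± 2.09 CPM in controls (0.39 ± 0.12, edgeR adjusted p = 0.0741). Slc12a8 passed with no low-count filter (edgeR adjusted p = 0.0379) and without Myc-deleted library 1 (0.0356), over a range of 0.0356 to 0.191. Sat2, a relative of Sat1, averaged 1.81 ± 0.361 CPM in Myc-deleted libraries and 1.41 ± 0.459 CPM in controls (0.35 ± 0.35, edgeR adjusted p = 0.609).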

How the data were processed

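Stranded mRNA libraries of intestine were sequenced, as the labels' protocols state. The authors deposited a table of expected counts, with no scaling between libraries. The submitters' processing notes name cutadapt, STAR, Picard, RSEM and the build mm10. Versions, annotation and strand setting were not found in these sources. Symbols come from GENCODE M21, which matched 99.1% of the 47643 identifiers.

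Expected counts were rounded to whole numbers. Genes passed filterByExpr when at least 3 libraries reached the CPM that 10 counts give at the median library total. Their counts also had to total 15 or more over all libraries. TMM set the scaling. The edgeR 4.0.16 quasi-likelihood F-test (R 4.3.3) compared Myc-deleted with control libraries, and Benjamini-Hochberg adjusted p under 0.05 was called. Values after ± are SE for log2 fold changes (the fold change over the square root of F) and SD for levels. The 4 ratios had two-sided exact permutation tests. The procedure was tested on simulated data, where most changes of 1.25-fold and 1.5-fold were not called. A gene that did not pass may therefore have changed. Counting errors and floors cover counting error only. The labels give no separate animal per library, so p-values measure the spread between these libraries, which may be technical.

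Alternatives were RLE and upper-quartile scaling, TMM without 96 ribosomal protein genes, DESeq2 1.42.0, voom in limma 3.58.1, no filter, a minimum of 1 CPM in 3 libraries, a replicate block, 5 added to each count of a ratio, and leaving out each library. Summing genes that share sequence was chosen after seeing the data. The 10 genes and all lists were chosen with earlier results of these data known. The text names all 10 genes, each related gene past the threshold, and up to 3 more per related list by mean level.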

Additional observations from a re-analysis of the deposited data

How the results depend on the processing

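Odc1, Arg2 and Oat kept direction and call under the 15 alternatives run for each. Leaving out single libraries gave 229 to 503 genes higher and 233 to 447 lower (both lowest without control library 2), 1 to 2 polyamine genes higher and 0 to 1 related genes higher. Of the polyamine genes 2 were higher with no low-count filter and 2 with the replicate block, Smox being the second in each (edgeR adjusted p = 0.0381 and 0.0443). Of the related genes 0 were higher with upper-quartile scaling, 2 with DESeq2, 2 with limma voom, 3 with no low-count filter and 2 with the replicate block. Leaving out single libraries gave log2 ratio differences of 0.57 to 0.82 for Odc1 to Oaz1, -0.0544 to 0.114 for Azin1 to Oaz1, -0.147 to 0.152 for Oaz2 to Oaz1 and -0.157 to 0.258 for Srm to Sms. It gave log2 fold changes of -0.223 to 0.157 for Paox, -0.0792 to 0.199 for Oaz2, -0.133 to 0.0547 for Enoph1 and -0.0924 to 0.0149 for Eif5a. Oaz2 was at -0.00185 with upper-quartile scaling. The cause was not tested for any of these.

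Same-numbered libraries deviated together only weakly (r = 0.0261, 0.0524 and 0.0189 across 12720 genes, which are not independent replicates), so the numbers were not taken as pairs, although 6 of 6 libraries correlated best with their own number. With the replicate block 980 genes were called in place of 1011, Cps1 passed (edgeR adjusted p = 0.0419) and Nags did not (0.0636). Srm and Paox had under 100 counts in every library, where counting error was 13.0% and 11.6% of the level, less than the spread between libraries (18.5% in Myc-deleted libraries and 20.0% in controls for Srm, 25.1% in Myc-deleted libraries and 19.9% in controls for Paox).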
